A study of Mus musculus with 6 samples.

Results

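The canonical Wnt pathway is described here through 9 genes chosen by name from 53657 gene names counted in each library: *Ctnnb1*, which encodes beta-catenin, the scaffold genes *Axin1*, *Axin2* and *Apc*, the TCF/LEF transcription factor genes *Lef1*, *Tcf7*, *Tcf7l1* and *Tcf7l2*, and the inhibitor gene *Shisa6*. RNA was sequenced from tdTomato+ MCAM-bright undifferentiated spermatogonia of 3 WT and 3 MUT mice, each mouse a separate sample, harvested 3 months after repeated tamoxifen courses given to adult animals of both groups. MUT mice carried the *FR-Hras* G12V floxed allele, which after recombination gave a heterozygous G12V mutation at the endogenous *Hras* locus, whereas WT mice were littermates without that allele. All 6 mice carried *Gfra1-creERT2* and the *tdTomato* reporter on a mixed background. Recombination was driven by the *Gfra1* promoter, so both the reporter and the mutation started in *Gfra1*-expressing germ cells. tdTomato stayed on in their progeny.

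In the absence of a Wnt signal, a complex of Axin, APC and the kinases GSK3 and casein kinase 1 marks beta-catenin for destruction. Wnt ligands bound to Frizzled receptors with an LRP coreceptor halt this complex, and beta-catenin then accumulates, enters the nucleus and binds TCF/LEF factors at target genes such as *Axin2*. In the testis, beta-catenin signaling has been linked to the passage of undifferentiated spermatogonia toward differentiation, and SHISA6 is known as a cell-autonomous Wnt inhibitor in a fraction of the *Gfra1*-expressing cells.

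All 9 genes passed the expression filter, and none was called at an FDR of 0.1 between MUT and WT, against 0.0102% of the 19656 genes tested (2 genes). The same was true in edgeR with a replicate block, where 0.0661% of the genes were called, and in DESeq2, where 0.0241% were called. *Lef1* had the largest positive difference of the 9, 1.32-fold higher in MUT, and its samples did not overlap between the genotypes. *Shisa6* had the largest negative difference, at 0.739-fold, and its samples overlapped. The median log2 fold change of the 9 genes was 0.08, against 0.01 over all tested genes. Of the 9, 8 had a 95% interval that stayed within 1 of zero on the log2 scale. So did 81.6% of all tested genes, and 10322 of the 10583 tested genes above 10 CPM. Without WT replicate 3 the median of the 9 genes was 0.03.

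The libraries held between 22729292 and 23550433 counts, and the 9 genes took between 0.136% and 0.161% of them. At this depth 3 counts, taken as the floor of detection, corresponded to 0.127 to 0.132 CPM, a scale of counts relative to library size with TMM normalization. *Hras* itself ranged from 56.8 to 65.2 CPM in WT and from 61.0 to 69.9 CPM in MUT, and counts over the whole gene cannot separate the alleles or check the labels. WT replicate 3 stood apart: set against WT replicates 1 and 2, its counts gave a chi-square per degree of freedom of 27.6 and 20.5, where those 2 gave 5.68. MUT replicate 3 also stood apart, to a lesser degree, with 11.1 and 9.75 against MUT replicates 1 and 2, where those 2 gave 4.67. The number of genes with an unadjusted p under 0.05 in edgeR was 547 with all samples. It was 729 without WT replicate 3 and 1736 without MUT replicate 3. Among genes above 10 CPM, the median log2 difference of WT replicate 3 from the other WT samples was -0.25 for the 1114 genes with over 10 kb of exon and 0.21 for the 1235 genes with at most 2 kb. In the MUT samples these medians stayed between -0.06 and 0.04 in every length class. Markers of the sorted cells were abundant, with 8 genes of undifferentiated spermatogonia summing to between 1459 and 1958 CPM in WT and between 1696 and 2005 CPM in MUT. Other cells were also represented. Spermatid markers (5 genes) summed to 857 to 1459 CPM in WT and 593 to 1131 CPM in MUT, with overlap, and *Tnp1*, a transition protein gene of spermatids, was called lower in MUT by edgeR with the replicate block (adjusted p = 0.0794) but not without it (adjusted p = 0.998). Leydig cell markers (6 genes) summed to 67.3 CPM in MUT replicate 3 and to between 12.9 and 21.1 CPM in the other libraries. Macrophage markers (6 genes) summed to 649 to 1068 CPM in WT and 571 to 712 CPM in MUT, and B and plasma cell markers (6 genes) to 76.6 to 326.5 CPM and 26.1 to 89.0 CPM. Of the B and plasma cell genes, *Jchain* was called lower in MUT by edgeR with the replicate block (adjusted p = 0.0257). Without the block it was not called (edgeR, adjusted p = 0.998). In that fit *Igkc* (-3.11), *Jchain* (-2.69), *Ighm* (-0.81) and *Cd79b* (-0.47) had negative log2 fold changes. The B cell genes *Cd79a* (0.13) and *Ms4a1* (0.25) had positive ones. T cell markers (6 genes) summed to at most 16.5 CPM, and 5 of the 6 had at least 3 counts in every library. *Lck* had the most, 209 to 254 counts. *Cd3g*, which encodes a chain of the T cell receptor complex, was at 0 in 4 of the 6 libraries. It was at 2 and 3 counts in MUT replicates 1 and 3. In bulk RNA, fewer cells of a type and less RNA per cell cannot be told apart.

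The start regions of *Lef1* and *Axin2* are shown because these were the genes of the 9 whose samples did not overlap between the genotypes. The sequences come from RefSeq on GRCm38.p6 and each holds the 250 bases before and the 50 bases after an annotated start. They were searched on both strands for the core letters to which TCF/LEF factors are known to bind, spelled as CTTTGAA, as CTTTGAT, as CTTTGTA or as CTTTGTT, and matches are in capitals. The first is the most upstream *Lef1* start, chr3:131110047-131110346 on the plus strand. The next is a downstream *Lef1* start, chr3:131156044-131156343 on the plus strand, the only *Lef1* start with a match. The *Lef1* starts at chr3:131110073-131110372 and chr3:131112541-131112840 are not shown. The last is *Axin2*, chr11:108920099-108920398 on the plus strand.
*Lef1*, upstream start: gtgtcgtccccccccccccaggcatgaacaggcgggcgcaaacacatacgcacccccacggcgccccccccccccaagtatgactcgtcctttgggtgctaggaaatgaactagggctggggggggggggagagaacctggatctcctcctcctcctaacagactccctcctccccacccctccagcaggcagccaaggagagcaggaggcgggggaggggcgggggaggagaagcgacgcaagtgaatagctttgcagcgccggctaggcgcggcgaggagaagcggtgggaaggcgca
*Lef1*, downstream start: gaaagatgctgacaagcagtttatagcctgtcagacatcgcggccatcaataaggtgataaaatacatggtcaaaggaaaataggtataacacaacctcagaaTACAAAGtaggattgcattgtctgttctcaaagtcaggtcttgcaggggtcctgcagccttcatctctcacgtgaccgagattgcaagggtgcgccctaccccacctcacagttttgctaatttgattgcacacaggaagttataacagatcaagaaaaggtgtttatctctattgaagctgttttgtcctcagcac
*Axin2*: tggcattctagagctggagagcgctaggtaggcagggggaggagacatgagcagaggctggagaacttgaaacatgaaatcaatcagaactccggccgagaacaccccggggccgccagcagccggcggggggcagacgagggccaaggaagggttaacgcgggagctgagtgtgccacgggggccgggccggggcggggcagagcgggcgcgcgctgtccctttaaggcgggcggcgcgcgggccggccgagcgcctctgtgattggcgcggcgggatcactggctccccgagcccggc

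The downstream *Lef1* start held TACAAAG, which reads CTTTGTA on the other strand, with its first base at -147 from the start. The upstream *Lef1* start, the *Lef1* starts that are not shown and the *Axin2* start held none of these letters. RefSeq start regions were matched by symbol for 6 of the 9 genes, with 12 starts in all, and the only other match was CTTTGTT in the downstream start of *Tcf7l2* (chr19:55895071-55895370, plus strand, first base at -14). Of 32851 start regions of the same length, 5544 (16.9%) held such a match, and a match describes letters only. Counts per gene do not show which start was used.

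*Lef1* encodes a TCF/LEF factor that recruits beta-catenin to DNA and is also a well-known target of the pathway in several tissues. The gene spans 131110471 to 131224356 on the plus strand of chromosome 3 (GRCm38). Counts on the gene were 312, 333 and 328 for the WT replicates, numbered 1 to 3, against 447, 430 and 394 for the MUT replicates. Every MUT sample lay above every WT sample. After scaling, WT averaged 13.9 ± 0.301 CPM and MUT averaged 18.3 ± 1.37 CPM (SD, n = 3 each). The log2 fold change was 0.40 (standard error 0.11, 95% interval 0.16 to 0.64), which did not pass the correction (edgeR's quasi-likelihood test, unadjusted p = 0.00479, adjusted p = 0.998 with Benjamini-Hochberg adjustment). The exact two-sided permutation test gave p = 0.1, the smallest that 3 samples against 3 allow. With an unadjusted p under 0.05, *Lef1* was 1 of the 263 genes higher in MUT that reached this level (1.34% of those tested).

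The MUT to WT ratios of *Lef1* in the same-numbered pairs of mice were 1.43, 1.31 and 1.22. Because its groups did not overlap, any pairing gives ratios above 1, so this direction adds no separate observation. In the fit with a replicate block the log2 fold change was again 0.40 (edgeR, unadjusted p = 0.00463, adjusted p = 0.332), and over all refits, including each sample left out in turn, it lay between 0.34 and 0.46, with edgeR, DESeq2 or limma adjusted p-values between 0.223 and 1.0. Of the *Lef1* exon bases, 13.7% are shared with the antisense gene *RP24-176P19.3*, which had 9 to 14 counts in WT and 5 to 10 counts in MUT. The summed level of 4 markers of differentiating spermatogonia, *Kit*, *Stra8*, *Dmrtb1* and *Sohlh1*, was 502 to 563 CPM in WT and 587.5 to 726.0 CPM in MUT, without overlap. This was the only marker list whose sums did not overlap. None of the 4 was called by edgeR (adjusted p = 0.998 for each), and of them *Stra8* alone did not overlap between the groups. Markers of other lists were also higher in MUT without overlap: *Lin28a* of undifferentiated spermatogonia, and *Wt1* and *Gata4* of Sertoli cells. In the list of *Lin28a*, however, *Gfra1* (-0.20), *Id4* (-0.18), *Etv5* (-0.18), *Ret* (-0.14) and *Nanos2* (-0.07) had negative log2 fold changes. *Zbtb16* (0.09) and *Sall4* (0.15) had positive ones, and the groups overlapped for each of these genes. The Sertoli cell genes *Sox9* (-0.01), *Rhox5* (0.20) and *Cldn11* (0.06) overlapped as well. Over all tested genes, 7.69% did not overlap in either direction. The part of differentiating or other cells in the *Lef1* difference was not tested.

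*Axin2* encodes a scaffold of the destruction complex and is the standard feedback target of beta-catenin. It lies between 108920349 and 108950783 on the plus strand of chromosome 11. Its level was 40.2, 41.6 and 27.8 CPM in the WT replicates, numbered 1 to 3, against 43.0, 44.2 and 41.7 CPM in the MUT replicates. The MUT samples were all above the WT samples, but MUT replicate 3 exceeded WT replicate 2 by very little, and WT replicate 3 was far below the rest. The log2 fold change was 0.24 (standard error 0.14, 95% interval -0.09 to 0.56), and it was not called by edgeR (unadjusted p = 0.134, adjusted p = 0.998). The exact permutation test gave p = 0.1, again the smallest it can give. *Lef1* and *Axin2* were the 2 of 9 genes whose groups did not overlap, both higher in MUT, where 4.69% of all tested genes were separated in this direction and 3.00% in the other.

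The *Axin2* difference depended on WT replicate 3, whose log2 level minus the mean of the other WT samples was -0.56. Without that sample the log2 fold change was 0.07 (edgeR, unadjusted p = 0.348). With the replicate block it was 0.25 and its unadjusted p reached 0.0391 in edgeR, but the adjusted p was 0.718. In that fit 6.60% of all tested genes had an unadjusted p under 0.05. The same-numbered ratios were 1.071, 1.064 and 1.501, so the largest came from the pair that held WT replicate 3.

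**Figure D1:**
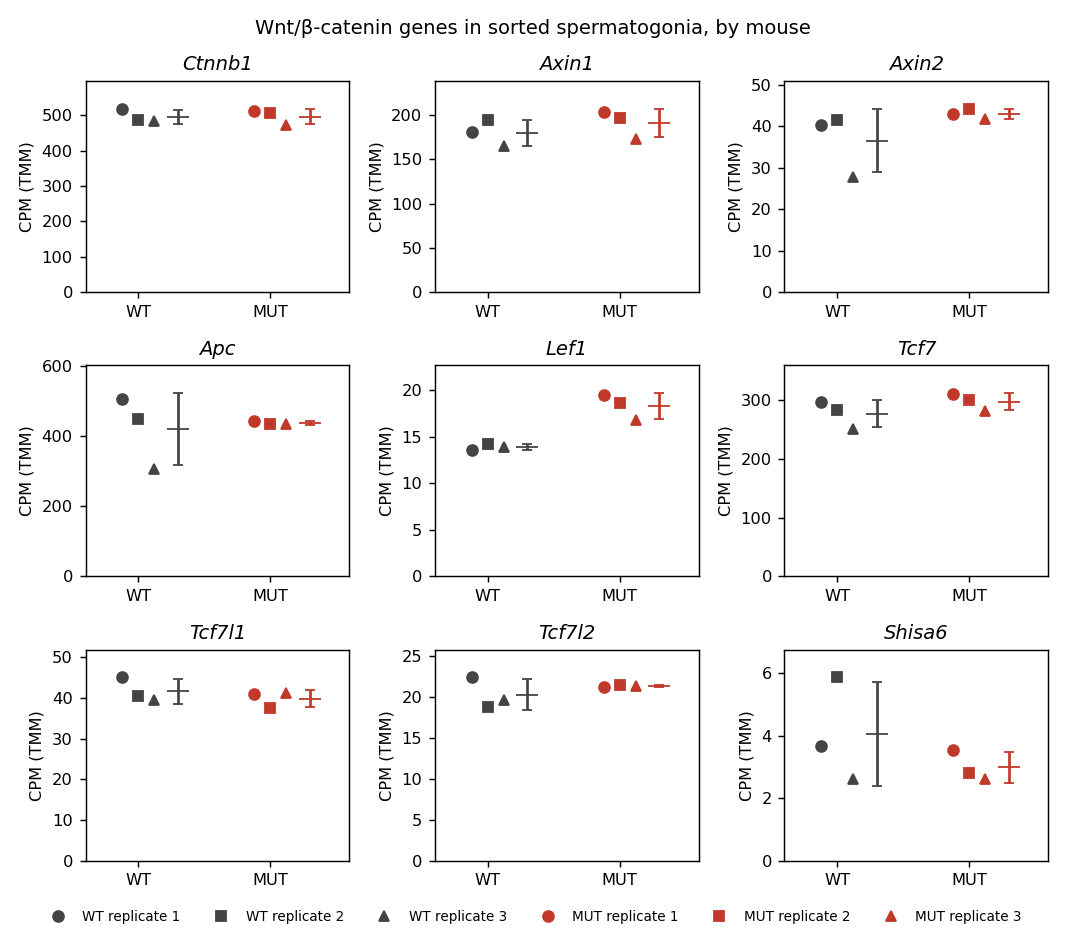
Level of each of the 9 genes in each mouse, in TMM-normalized CPM on linear axes that start at 0, with circles, squares and triangles for replicates 1, 2 and 3 and bars for the mean ± SD of 3 mice. *Lef1* is separated between WT (13.6 to 14.2 CPM) and MUT (16.8 to 19.5 CPM), and WT replicate 3 is low for *Apc* (307.5 CPM) and *Axin2* (27.8 CPM).

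*Ctnnb1* encodes beta-catenin, the signal carrier of the pathway and also a component of cadherin junctions. It lies on the plus strand of chromosome 9 from 120929216 to 120960507. Its level was 519.5, 487.8 and 482.9 CPM in WT and 511.2, 506.0 and 472.7 CPM in MUT, replicates 1 to 3. Both group means were 496.7 CPM, with SDs of 19.9 in WT and 20.9 in MUT (n = 3 each). The 95% interval of its log2 fold change ran from -0.17 to 0.17. Of its exon bases 15.1% are shared with *Ulk4* on the opposite strand and *Mir7090*, and fragments there can be lost from the count. *Ctnnb1* also had the smallest within-group spread of the 9 genes, an SD of 0.06 on the log2 scale. The median was 0.17 over all tested genes and 0.11 over those above 10 CPM.

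*Axin1*, which encodes the constitutively expressed scaffold of the destruction complex, lies on the plus strand of chromosome 17 from 26138688 to 26195811. It measured 180.6, 194.7 and 165.2 CPM in WT and 203.7, 197.3 and 172.9 CPM in MUT. The groups overlapped, with a log2 fold change of 0.09 and a 95% interval from -0.12 to 0.29. *Apc*, on chromosome 18, encodes the large scaffold that is a tumor suppressor of the intestine. It measured 507.0, 449.0 and 307.5 CPM in WT and 444.7, 434.6 and 435.3 CPM in MUT.

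The MUT samples of *Apc* lay close together and inside the WT range, whose width came from WT replicate 3. *Apc* had the longest exon sequence of the 9 genes, 15.753 kb, and its log2 level in WT replicate 3 minus the mean of the other WT samples was -0.63. Its log2 fold change was 0.06 with all samples (95% interval -0.31 to 0.42) and turned to -0.13 without WT replicate 3 (edgeR, unadjusted p = 0.0879). WT replicate 3 was the lowest sample for 4 of the 9 genes (*Axin1*, *Axin2*, *Apc* and *Tcf7*), whereas 27.0% of all tested genes had their lowest value there. The part of exon length in these values was not tested.

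*Tcf7*, *Tcf7l1* and *Tcf7l2* encode the other TCF/LEF factors, of which TCF7L1 is known mainly as a repressor of target genes. *Tcf7* (chromosome 11, 52252371 to 52283014, minus strand) measured 296.5, 284.1 and 251.5 CPM in WT and 311.0, 300.6 and 281.7 CPM in MUT, with overlapping groups. Its log2 fold change was 0.10, with a 95% interval from -0.09 to 0.29. *Tcf7l1* (chromosome 6, 72626378 to 72789254, minus strand) measured 45.1, 40.4 and 39.5 CPM in WT and 41.0, 37.5 and 41.2 CPM in MUT. Its groups overlapped as well, and the log2 fold change of -0.06 had an interval from -0.25 to 0.13. *Tcf7l2* (chromosome 19, 55741810 to 55933654, plus strand) measured 22.4, 18.8 and 19.7 CPM in WT and 21.2, 21.6 and 21.3 CPM in MUT. For *Tcf7l2* the MUT values fell inside the WT range, and the log2 fold change of 0.08 had an interval from -0.16 to 0.31.

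*Shisa6* spans 66211725 to 66525964 of chromosome 11 (minus strand) and was the weakest of the 9 genes. Its counts were 84, 137 and 62 for WT, replicates 1 to 3, against 81, 65 and 61 for MUT, all above the floor of 3 counts. WT replicate 2 was high, and the other samples of both groups lay within 61 to 84 counts. WT averaged 4.05 ± 1.65 CPM and MUT 2.99 ± 0.489 CPM (SD, n = 3 each). The log2 fold change was -0.44 (standard error 0.30, 95% interval -1.11 to 0.24), so a MUT level between 0.462-fold and 1.18-fold of WT was compatible with these samples (edgeR, unadjusted p = 0.176, adjusted p = 0.998; exact permutation test, p = 0.4).

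The size of the *Shisa6* difference varied with single samples, from -0.67 on the log2 scale without WT replicate 3 (edgeR, unadjusted p = 0.0294) to -0.09 without WT replicate 2. MUT was lower than WT in all 3 same-numbered pairs, with ratios of 0.964, 0.481 and 0.995, as it was for 13.0% of all tested genes. *Lef1*, *Axin2*, *Axin1* and *Tcf7* were higher in MUT in all 3 pairs, as were 14.1% of all tested genes. For *Lef1* and *Axin2* this follows from groups that did not overlap.

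**Figure D2:**
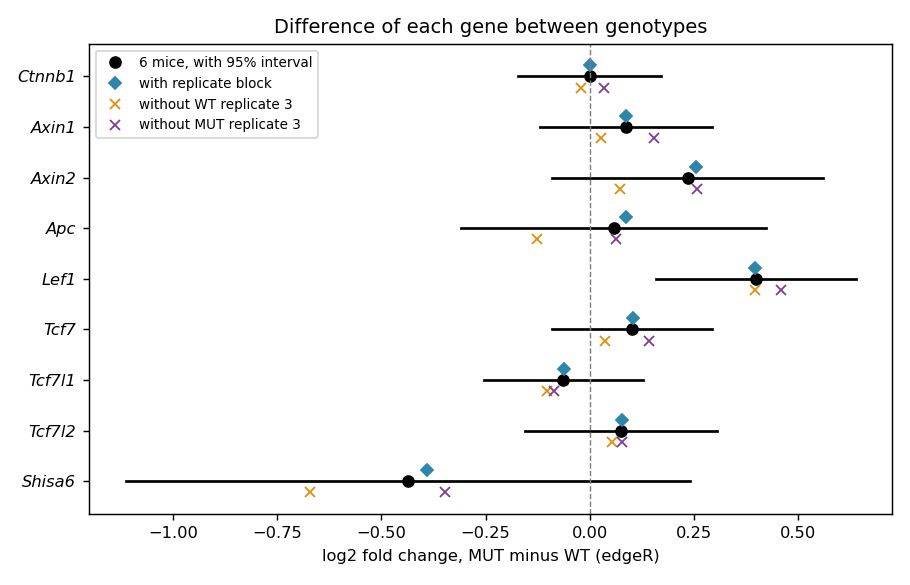
Log2 fold change of each gene, MUT minus WT, from edgeR, with black points and bars for all 6 mice and their 95% intervals, diamonds for the fit with the replicate block and crosses for fits without WT replicate 3 or MUT replicate 3. The *Lef1* interval (0.16 to 0.64) is the only one of the 9 that lies wholly on one side of 0, and *Apc* changes sign to -0.13 without WT replicate 3.

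To compare levels between genes, CPM was divided by the exon length in kb (CPM per kb). On this scale *Tcf7* had the highest value of the 9 transcripts at 109.5 ± 7.90 CPM per kb (SD, n = 6), at or above 98.8% of the tested genes. *Ctnnb1* followed at 95.7 ± 3.52 and *Axin1* at 48.5 ± 3.96 CPM per kb. *Apc* was at 27.3 ± 4.17, *Tcf7l1* at 10.4 ± 0.641 and *Axin2* at 7.22 ± 1.09 CPM per kb, the last at or above 62.3% of the tested genes. The low end held *Tcf7l2* at 2.38 ± 0.154, *Lef1* at 1.84 ± 0.294 and *Shisa6* at 0.472 ± 0.166 CPM per kb, the last at or above 14.3% of the tested genes. The order was identical in all 6 samples, each gene lying above its next neighbor in 6 of 6. The SD ranges of *Tcf7* and *Ctnnb1* over all 6 samples did not overlap. In WT alone they did, at 105.7 ± 8.86 against 95.7 ± 3.83 CPM per kb (SD, n = 3 each). Exon length counts every annotated exon and not the isoforms in use. It also counts the 15.1% of *Ctnnb1* exon bases shared with other genes, where fragments can be lost, whereas *Tcf7* shares none. The order of *Tcf7* and *Ctnnb1* is therefore not settled by these values.

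*Tcf7* thus made up most of the TCF/LEF transcripts. Of the summed level per kb of the 4 factors, it took 87.9 ± 0.580% in WT and 88.5 ± 0.604% in MUT (SD, n = 3 each). *Tcf7l1* took 8.85 ± 0.382% and 7.94 ± 0.593%, and *Tcf7l2* took 1.94 ± 0.158% and 1.91 ± 0.0893%, with overlapping groups for both. The *Lef1* share was 1.21%, 1.32% and 1.44% for WT, replicates 1 to 3, against 1.67%, 1.65% and 1.57% for MUT. These groups did not overlap, and the exact two-sided permutation test gave its smallest value of 0.1. The share is drawn from the same counts as the *Lef1* difference and adds no separate observation.

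**Figure D3:**
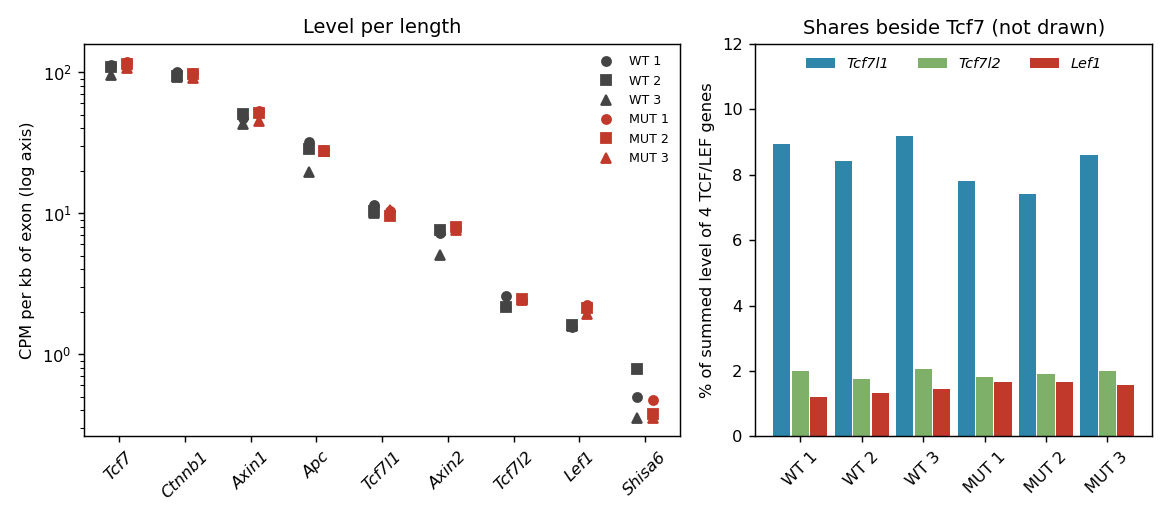
Level per exon length of the 9 genes in each of the 6 mice, in CPM per kb on a log axis, with genes ordered by their mean. *Tcf7* (109.5 CPM per kb) and *Ctnnb1* (95.7 CPM per kb) lead and *Shisa6* (0.472 CPM per kb) is lowest, with the same order in every mouse. Bars give the percent share of *Tcf7l1*, *Tcf7l2* and *Lef1* in the summed level of the 4 TCF/LEF genes, with *Lef1* between 1.21% and 1.44% in WT and between 1.57% and 1.67% in MUT.

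Across the 6 samples the log2 levels of *Axin2* and *Tcf7* were most alike (Pearson r = 0.897, n = 6) and those of *Tcf7l2* and *Shisa6* least alike (r = -0.482, n = 6). WT replicate 3 was the lowest sample for both *Axin2* and *Tcf7*. The 6 samples had the same sort markers and sequencing protocol, and the labels do not give their batches. These values are therefore descriptions.

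The rest of the pathway was read from 93 further genes in 7 lists, of which 88 were tested. None was called by edgeR at an FDR of 0.1, and 2 had an unadjusted p under 0.05 (against 2.78% of all tested genes). A positive log2 fold change was seen for 57 of 88 (64.8%), against 51.8% of all tested genes and 58.1% of those above 10 CPM. This count depended on single libraries. Without WT replicate 3 it was 46 of 88, or 52.3%, against 53.1% of all tested genes, and without MUT replicate 3 it was 64 of 88, or 72.7%, against 52.2%. The median log2 fold change of the 88 genes was 0.04 with all samples, 0.01 without WT replicate 3 and 0.07 without MUT replicate 3. By groups that did not overlap, 5 of the 88 were higher in MUT (*Wnt2b*, *Ror1*, *Ror2*, *Notum* and *Tnfrsf19*) and 3 were lower (*Wnt3*, *Dact1* and *Shisa2*), named here after their values were seen. These 8 stand against 7.69% of all tested genes without overlap in either direction.

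Of 19 Wnt ligand genes, 14 were tested, 9 with a positive difference and a list median of 0.08. The other 5 (*Wnt1*, *Wnt8a*, *Wnt10a*, *Wnt10b* and *Wnt16*) had at most 7 counts in any library. *Wnt5b*, which encodes a ligand best known for signaling without beta-catenin, had the highest level of the list at 4.60 CPM per kb and a log2 fold change of 0.04. *Porcn* and *Wls*, which are required for ligand secretion, had log2 fold changes of -0.10 and -0.03. Among 15 receptor genes, 8 had a positive difference, with a median of 0.045. Without WT replicate 3 the count was 6 and the median -0.03, and without MUT replicate 3 they were 11 and 0.07. *Ryk*, an atypical Wnt receptor, led at 31.6 CPM per kb with a log2 fold change of -0.05.

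Of 21 genes of cytoplasmic transduction and beta-catenin turnover, 13 had a positive difference, with a median of 0.04. Without WT replicate 3 the count was 8 and the median -0.01, and without MUT replicate 3 they were 15 and 0.05. *Csnk1d*, a casein kinase 1 gene, had the highest level at 56.1 CPM per kb and a log2 fold change of -0.01. Of 14 nuclear partners, 12 had a positive difference with a median of 0.06, a count that fell to 6 of 14 with a median of -0.02 without WT replicate 3. *Pygo2*, whose product links beta-catenin to chromatin through BCL9, led that list at 45.5 CPM per kb, with 165.2 ± 2.56 CPM in WT and 165.3 ± 7.54 CPM in MUT (SD, n = 3 each).

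Of 15 other beta-catenin target genes, 13 had a positive difference, with a median of 0.11. So did 51.8% of all tested genes and 58.1% of those above 10 CPM. The count was again 13 without WT replicate 3, with a median of 0.07, and 14 without MUT replicate 3, with a median of 0.19. The shares of all tested genes were then 53.1% and 52.2%. These refits reuse the same counts and add no separate observation. None of the 15 was called, and *T* was the only one with an unadjusted p under 0.05, in the negative direction. *Ccnd1*, the cyclin D1 gene, had the highest level of the list, 22.7 CPM per kb, and its log2 fold change of 0.15 had a 95% interval from -0.08 to 0.38. *Notum*, which encodes a secreted enzyme that inactivates Wnt ligands, measured 2.80, 3.50 and 3.76 CPM in WT and 3.85, 4.51 and 4.53 CPM in MUT, a narrow separation (edgeR, unadjusted p = 0.0861). *Tnfrsf19*, a receptor gene of the TNF family, had 43, 49 and 57 counts in WT and 72, 64 and 57 counts in MUT, and replicate 3 of both groups had the same count before scaling.

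*T*, which encodes the transcription factor Brachyury and is a target of the pathway in the embryo, measured 17.8, 24.2 and 20.4 CPM in WT and 18.1, 12.5 and 16.9 CPM in MUT. The groups overlapped, with MUT replicate 2 lowest. The log2 fold change was -0.39 (standard error 0.17, 95% interval -0.77 to -0.01; edgeR, unadjusted p = 0.0439, adjusted p = 0.998). The difference was thus opposite in sign to those of *Lef1* and *Axin2*.

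Of the 7 other *Shisa* genes, 5 had a negative difference, between -0.41 (*Shisa7*) and -0.08 (*Shisa9*), and *Shisa4* and *Shisa8* had positive ones. The median was -0.11, or -0.07 without WT replicate 3 and -0.15 without MUT replicate 3, with 3 of 7 positive in both cases. *Shisa2*, whose product is known to retain immature Frizzled receptors inside the cell, measured 26.5, 27.6 and 26.7 CPM in WT and 24.6, 22.6 and 20.9 CPM in MUT, without overlap. Its log2 fold change was -0.24 (standard error 0.09; edgeR, unadjusted p = 0.0284, adjusted p = 0.998). *Shisa5* had the highest level of the family at 7.17 CPM per kb, with a log2 fold change of -0.11.

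**Figure D4:**
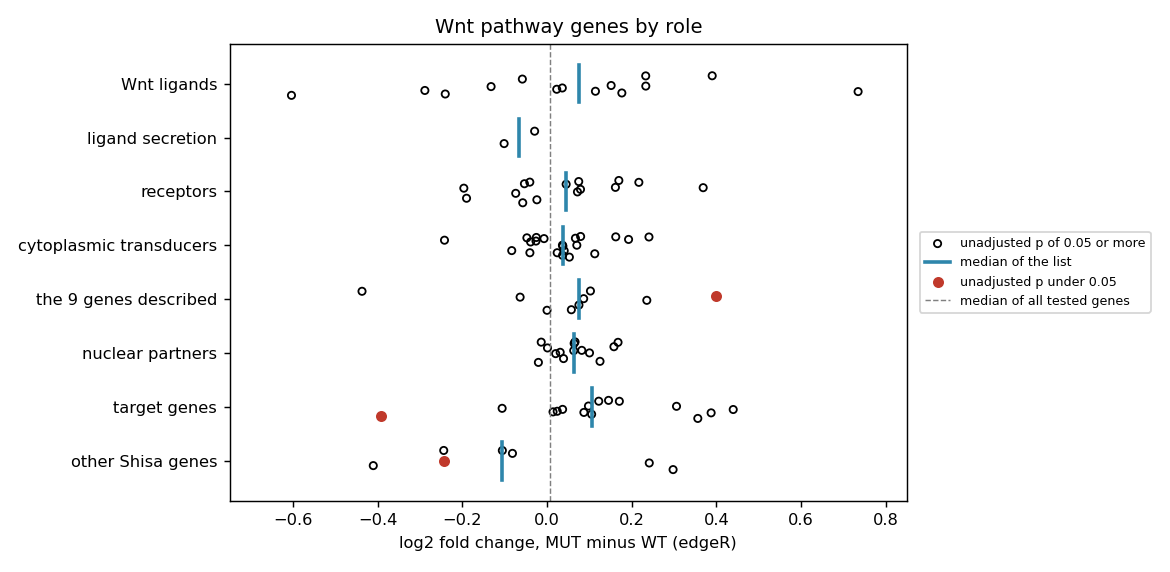
Log2 fold change, MUT minus WT, of 88 further pathway genes by role and of the 9 genes described, from edgeR, with a blue bar for the median of each list, a dashed line for the median of all tested genes (0.01) and filled points for an unadjusted p under 0.05. The filled points are *Lef1* (0.40), *T* (-0.39) and *Shisa2* (-0.24), and none of the genes shown was called after adjustment.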

How the data were processed

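Undifferentiated spermatogonia of 3 WT and 3 MUT mice, grouped and numbered by the sample labels, were sequenced with TruSeq Stranded mRNA libraries and a 50 bp paired-end protocol. For each mouse the authors deposited a table of unnormalized fragment counts by gene name, with no pooling. Per the file headers they used featureCounts 1.6.2 with a GENCODE M17 annotation, a *tdTomato* entry and no strand setting, so that fragments shared by overlapping genes were left out. The submitters' processing notes also name STAR, FastQC and GRCm38.p6.

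The 6 columns were joined, and edgeR 4.0.16 in R 4.3.3 normalized them by TMM, filtered them with filterByExpr (19656 of 53657 names kept) and compared MUT with WT by its quasi-likelihood test with no term other than genotype, Benjamini-Hochberg adjustment over all tested genes and an FDR of 0.1. The authors' tool, DESeq2 (1.42.0 here), was an alternative, as were limma 3.58.1 voom, DESeq2 size factors, other filters, an FDR of 0.05, a replicate block, and each sample left out. Depth was 22729292 to 23550433 counts per sample, and the floor of 3 counts covers counting error only. The edgeR, DESeq2 and limma voom fits without a replicate block were tested on simulated counts.

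The same replicate numbers appear in both groups and the controls were littermates. Over 10583 genes above 10 CPM, deviations from the group means correlated at 0.304, 0.156 and 0.395 in pairs 1, 2 and 3. The numbers were therefore taken to pair the samples. However, WT replicate 2 with MUT replicate 1 gave 0.326, above the values of pairs 1 and 2. WT replicate 3 gave -0.418 and -0.15 with MUT replicates 1 and 2. MUT replicate 3 gave -0.267 and -0.335 with WT replicates 1 and 2. The labels do not say what the numbers mark, so the pairing is uncertain.

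The members and lists were chosen with earlier results of these data known. Genes named from each list were the one with the highest level per kb and any with an unadjusted p under 0.05. *Wnt2b*, *Ror1*, *Ror2*, *Notum*, *Tnfrsf19*, *Wnt3* and *Dact1* were named outside this rule, after their values were seen, because their groups did not overlap, and the ligands that were not tested and the secretion genes were named to complete their lists. Counts of lists without WT or MUT replicate 3 and the values by exon length were added after seeing the data. Start regions of *Axin1*, *Apc* and *Shisa6*, protein sequences and the reads at the *Hras* mutation were not analysed here.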

Additional observations from a re-analysis of the deposited data

How the results depend on the processing

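None of the 9 genes, and none of the 88 other pathway genes tested, was called under any alternative run, nor when a sample was left out. The number of genes called over the whole table was 2 with edgeR and also 2 with DESeq2 size factors. It was 9 in DESeq2 (17 if the Cook's distance filter was off), 4 with limma voom, 5 with no filter, 1 at an FDR of 0.05, and 0 with at least 10 counts in every sample (479 at an unadjusted p under 0.05 in edgeR). Under the replicate block edgeR called 13 and DESeq2 55, and the count lay between 0 and 6 with single samples left out. The replicate block changed no call among the 9 genes. The log2 fold change of *Ctnnb1*, near zero throughout, changed sign to 0.0013 in DESeq2 with or without the Cook's filter, 0.0032 with no filter and 0.0011 with the replicate block in DESeq2, and lay between -0.0282 and 0.0356 with single samples left out (0.0249 without WT replicate 1). That of *Apc* lay between -0.1254 and 0.2041 with single samples left out, the sign changing without WT replicate 3. The other 7 genes kept their direction under every alternative. Without division by exon length, 5 of the 9 genes kept their place in the order of levels. The causes were not tested. With 3 mice a group, the exact permutation test cannot go below 0.1, and for *Shisa6* (61 to 137 counts) the interval reached beyond a 2-fold decrease.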
